A study of Mus musculus with 2 samples.

Results

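The genes described here are 8 products of airway-like secretory epithelium, the mucus-making and fluid-secreting lining that the middle ear shares with the nose and bronchi: Bpifa1, Bpifb1, Scgb1a1, Scgb3a1, Scgb3a2, Muc5b, Muc16 and Cyp2f2. They were found as the probe sets that the array's annotation pairs with exactly 1 gene, under that name or an older one. Each of the 8 genes had 1 such probe set, 8 of 35557 probe sets and 8 of 19938 named genes. Total RNA of fetal mouse ear at E18.5, shortly before birth, was hybridised to 1 array per genotype. The first genotype, called DKO here, is BALB/c null for both Myf5 and Myod1, which direct embryonic cells into the skeletal muscle lineage, and the second, called WT, is BALB/c without these null alleles. The labels name no Cre, no tissue-restricted promoter and no treatment, and they state neither how much of the ear was dissected nor whether fetuses were pooled. With 1 array per genotype no difference has a replicate check and no p-value can be given.

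The middle ear cavity and the Eustachian tube are lined by ciliated, secretory and basal cells that continue the upper airway. Secretory cells of this lining release mucins, which form the gel that cilia carry towards the throat, and small defence proteins that bind bacteria and lipids. BPI-fold proteins such as BPIFA1 (also called SPLUNC1 or PLUNC) are lipid-binding secreted proteins. Secretoglobins are small secreted dimers, of which SCGB1A1 (CC10 or uteroglobin) is the classic product of bronchial club cells. CYP2F2 is a cytochrome P450 of mouse club cells and of olfactory mucosa.

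The deposited values are log2 signals. A signal was taken as measured when it lay above the array's own median over all probe sets, 5.70 in DKO and 5.65 in WT. This median is called the floor, and lower values were raised to it before a difference was taken. A difference is log2 DKO minus log2 WT, and differences of 2-fold or more were counted. Of the 8 genes, 3 were above the floor on both arrays, Bpifa1, Cyp2f2 and Muc5b. The other 5, Bpifb1, Scgb1a1, Scgb3a1, Scgb3a2 and Muc16, were below it on both, as were 7480 of all 19938 genes, or 37.5%. No gene of the set was above the floor on 1 array only. Below, a gene is called measured where its signal exceeded the floor on 1 array or both.

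Of the 12458 genes measured on 1 array or both, 213, or 1.71%, were at least 2-fold lower in DKO and 60, or 0.482%, at least 2-fold higher. Of the 3 measured secretory genes, 0 were lower and 0 higher by that rule, and all 3 lay within 2-fold. Their median difference was -0.21, against -0.01 over all 12458 genes. The 3 differences went both ways, so the median describes none of them well. For scale, the SD of the difference was 0.344 across the 11626 genes measured on both arrays. Between probe sets of 1 gene it was 0.168 (619 genes), which describes spread among probe sets and says nothing of variation among animals. Of the targeted genes, Myod1 read 6.38 in DKO and 6.95 in WT, and Myf5 read 5.25, below the floor, in DKO and 5.94 in WT. Whether these probe sets lie in the deleted sequence is not stated in the labels. Genes of the muscle contractile apparatus were lower in DKO by a median of -4.28, with 35 of 36 past 2-fold, the direction the genotype labels call for. Inner ear genes, which check the labelled tissue, had 20 of 21 members above the floor and a median difference of 0.01.

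**Figure D1:**
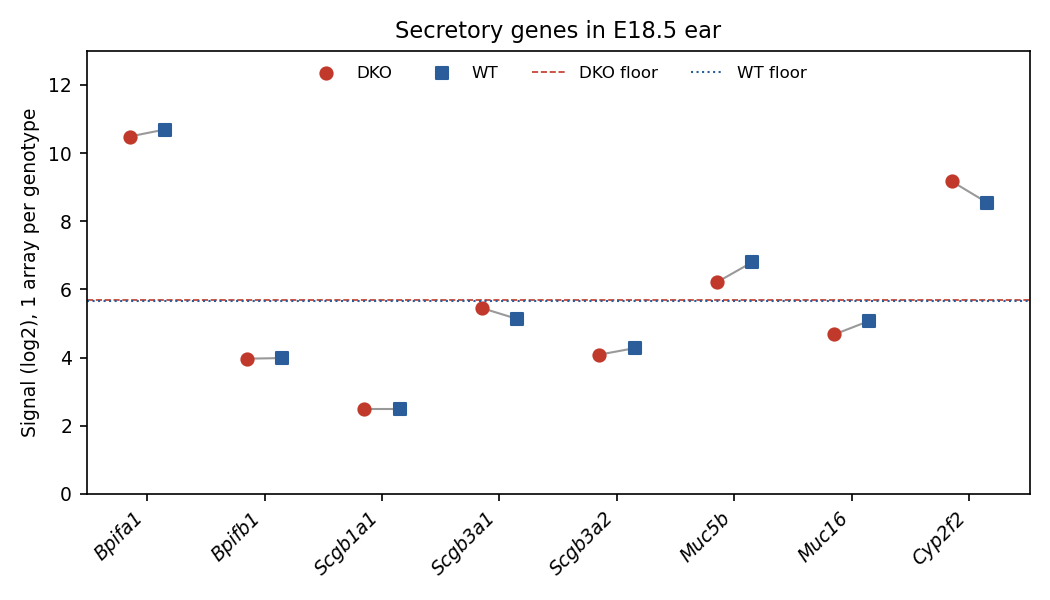
Signal of the 8 secretory genes, with the log2 signal on the vertical axis, DKO as circles left of WT as squares, and each array's floor as a broken line. Bpifa1, Cyp2f2 and Muc5b lie above the broken lines, and the other 5 genes lie below them.

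Sequences upstream of 3 genes are shown, picked by the array readings described next. They are Bpifa1 and its close neighbour Bpifa2, of which only the neighbour differed past 2-fold, and Cyp2f2, the member furthest towards DKO. The sequences are RefSeq windows of the GRCm38.p6 assembly, from 250 bases before to 50 bases after the transcript start. Each is on the plus strand and written 5′ to 3′. The windows are chr2:154142630-154142929 for Bpifa1, chr2:154008026-154008325 for Bpifa2 and chr7:27119705-27120004 for Cyp2f2. Capitals mark matches on either strand to TATAAA (the TATA box), TGTTTAC (a forkhead motif), CAAGTG (an NKX2-type motif) and CAGCTG (the E-box form that MYOD1 is known to bind). CAAGTG and CAGCTG are both forms of the wider E-box CANNTG.
Bpifa1: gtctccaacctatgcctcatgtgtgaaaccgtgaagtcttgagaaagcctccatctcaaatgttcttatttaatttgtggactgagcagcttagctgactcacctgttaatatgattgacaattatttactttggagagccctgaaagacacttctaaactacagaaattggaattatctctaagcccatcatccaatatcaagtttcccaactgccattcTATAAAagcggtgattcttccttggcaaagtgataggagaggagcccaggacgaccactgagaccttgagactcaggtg
Bpifa2: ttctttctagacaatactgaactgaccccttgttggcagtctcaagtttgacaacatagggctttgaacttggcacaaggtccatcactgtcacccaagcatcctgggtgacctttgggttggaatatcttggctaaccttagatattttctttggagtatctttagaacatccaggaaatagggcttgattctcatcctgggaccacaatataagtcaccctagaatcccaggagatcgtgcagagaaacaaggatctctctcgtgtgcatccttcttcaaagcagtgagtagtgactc
Cyp2f2: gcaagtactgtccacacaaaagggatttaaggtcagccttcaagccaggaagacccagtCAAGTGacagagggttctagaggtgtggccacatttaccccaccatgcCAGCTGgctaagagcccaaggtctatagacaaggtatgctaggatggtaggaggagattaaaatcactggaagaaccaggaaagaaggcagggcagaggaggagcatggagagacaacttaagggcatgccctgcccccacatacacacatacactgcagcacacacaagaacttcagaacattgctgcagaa
The Bpifa1 window held 1 TATAAA, starting at position -29 from the transcript start, and none of the other 3 motifs. The Bpifa2 window held 0 of the 4. The Cyp2f2 window held 1 CAAGTG at position -191 and 1 CAGCTG at position -143. Among all 32851 windows of the same length, TATAAA occurred in 13.6%, TGTTTAC in 3.65%, CAAGTG in 13.6% and CAGCTG in 16.3%. These are matches of letters and not sites of binding. Of the 8 genes, 5 had a window in the table. Among those not shown, Scgb3a1, below the floor on both arrays, also held 1 CAAGTG, at position -174. The windows of Bpifb1 and Muc16 held 0 of the 4 motifs.

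Bpifa1, the lipid-binding defence protein of nasal and middle ear secretions, was far above the floor in the ear of both genotypes. Its probe set 10477475 read 10.48 in DKO and 10.69 in WT, which is 4.78 log2 units above the floor in DKO and 5.04 in WT. The difference was -0.21, or 1.15-fold lower in DKO. In tissue RNA, a different number of secretory cells and a different amount of transcript per cell cannot be told apart, here or for any gene below. Of the 11626 genes measured on both arrays, 1966, or 16.9%, were lower in DKO by as much or more. Bpifb1, a larger BPI-fold protein of goblet cells (LPLUNC1), read 3.97 in DKO and 3.99 in WT and was below the floor on both arrays. So of these 2 defence proteins Bpifa1 had a measured level and Bpifb1 had none.

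Bpifa1 and Bpifb1 belong to a cluster of BPI-fold genes on chromosome 2, and the cluster shows how locally signals differed. Bpifa2, the parotid secretory protein of saliva, lies a short way before Bpifa1, with Bpifa3 among the genes between them. It read 12.47 in DKO, against 4.09, below the floor, in WT, and was at least 113-fold higher in DKO. Bpifa3 read 3.49 in DKO and 3.07 in WT, and Bpifa5, on the other side of Bpifa1, read 3.78 in DKO and 3.75 in WT, so both stayed below the floor. Of the 17 BPI-fold and related genes listed, 6 were measured. 1 of these 6 was at least 2-fold higher in DKO, 0 were lower and 5 were within 2-fold, with a median of 0.03. Bpifb3, a gene known from nasal and olfactory tissue, read 6.75 in DKO and 6.33 in WT, a difference of 0.43. Bpifb5 read 5.71 in DKO and 5.93 in WT, a difference of -0.22. The lipid carriers Lbp, which binds bacterial lipopolysaccharide, and Pltp, which moves phospholipids between lipoproteins, differed by 0.01 and 0.06.

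**Figure D2:**
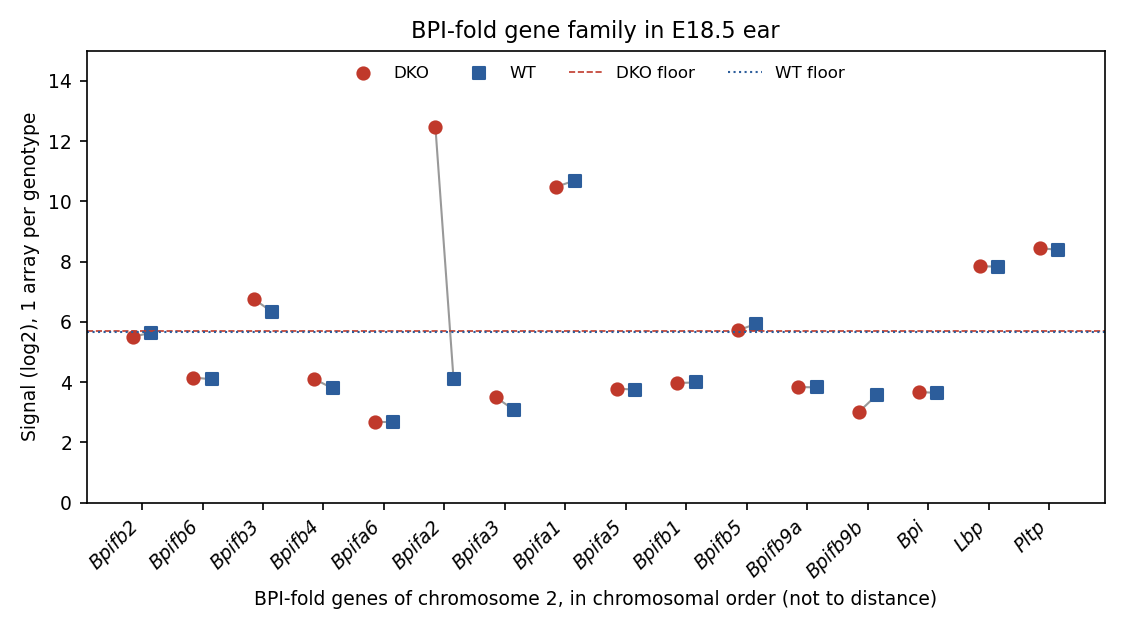
Log2 signal of the 16 BPI-fold and related genes of chromosome 2 in chromosomal order, DKO as circles left of WT as squares, with each array's floor as a broken line. Bpifa2 is above the floor in DKO alone, while Bpifa1, at 10.48 in DKO and 10.69 in WT, is high on both arrays.

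The secretoglobins that define club cells were below the floor on both arrays. Scgb1a1, the main club cell product, had 2.49 on both arrays, the same reading to every digit deposited. Identical readings are a feature of the table, found in 1227 of 35557 probe sets, or 3.45%, and do not show that the 2 tissues hold equal amounts. Scgb3a2, made by club cells from early in lung development, read 4.09 in DKO and 4.28 in WT. Scgb3a1, a secretoglobin of upper airway glands and goblet cells, came closest to the floor, with 5.45 in DKO and 5.13 in WT, which is 0.25 log2 units below it in DKO and 0.51 in WT. As deposited, these last 2 pairs of signals differ by -0.19 for Scgb3a2 and 0.32 for Scgb3a1, and signals below the floor have no fold.

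Of 24 secretoglobin genes listed, 10 had a probe set of their own, and 2 of those were measured, both in DKO alone. Scgb1b27, an androgen-binding protein subunit known from mouse salivary and lacrimal glands, read 6.40 in DKO and 5.41 in WT, at least 1.69-fold higher in DKO. Its other probe set read 2.75 in DKO and 2.11 in WT. Scgb2b27, which encodes a partner subunit, read 5.75 in DKO, just above the floor, and 2.66 in WT. Its bound, 1.07-fold, is small because the DKO signal lies so near the floor. Near-identical copies of these androgen-binding genes lie in the same cluster, so a probe set may read more than the gene it is named for.

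Muc5b is a gel-forming mucin, a polymer that gives airway and middle ear mucus its body. Its probe set 10559095 read 6.21 in DKO and 6.79 in WT, which is 0.51 log2 units above the floor in DKO and 1.15 in WT. The difference was -0.59, or 1.5-fold lower in DKO. Of the genes measured on both arrays, 310, or 2.67%, were lower in DKO by as much or more. Muc5b lay the nearest to the floor of the 3 measured members, and a floor at the 75th percentile removed it. With a pseudocount in place of the floor its difference shrank to -0.35.

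Muc16, a membrane-bound mucin of wet epithelial surfaces that is also made by mesothelium, read 4.68 in DKO and 5.08 in WT, below the floor on both arrays. The annotation ties its probe set to 1 transcript accession, as it also does for Muc5b. The other gel-forming mucins beside Muc5b on chromosome 7 were also below the floor: Muc5ac, a mucin of goblet cells at airway and stomach surfaces, read 4.82 in DKO and 4.39 in WT. Muc2, the intestinal mucin, read 5.05 in DKO and 4.72 in WT. Muc6, a mucin of gastric glands, read 4.39 in DKO and 3.96 in WT. So Muc5b was the 1 gene of this cluster of 4 with a measured signal.

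Of 15 genes with a mucin name or synonym, 6 were measured. 1 was at least 2-fold higher in DKO, 0 were lower and 5 were within 2-fold, with a median of -0.03. Muc19, a gel-forming mucin of salivary glands, read 8.26 in DKO and 5.28, below the floor, in WT, at least 6.13-fold higher in DKO. Its other probe set was higher in DKO as well, with 6.32 against 4.70 in WT. Muc1, a membrane mucin of most glandular epithelium, read 5.95 in DKO and 5.98 in WT, and Muc15, another membrane mucin, read 5.78 in DKO and 5.80 in WT. Emcn and Mcam carry mucin synonyms but mark blood vessels, and differed by 0.21 and -0.49.

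Cyp2f2, which oxidises small aromatic compounds such as naphthalene in mouse airway, was the member furthest towards DKO. Its probe set 10551293 read 9.17 in DKO and 8.55 in WT, which is 3.47 log2 units above the floor in DKO and 2.90 in WT. The difference was 0.62, or 1.54-fold higher in DKO, below the 2-fold line. Of the genes measured on both arrays, 205, or 1.76%, were higher in DKO by as much or more. Its difference ran from 0.57 to 0.66 over the other scalings and the pseudocount. The other floors and the probe set rule could not move it, since its 1 probe set lies far above the floor.

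The cytochrome P450 genes next to Cyp2f2 on chromosome 7 had no measured level. Cyp2a12 read 3.23 on both arrays, Cyp2g1, an olfactory enzyme, read 3.90 in DKO and 3.81 in WT, and Cyp2t4 read 3.87 in DKO and 4.03 in WT, all below the floor. Cyp2b10, an enzyme of the same chromosome induced by foreign compounds, read 6.19 in DKO and 4.36, below the floor, in WT, at least 1.46-fold higher in DKO. Cyp2s1, an epithelial enzyme, read 5.93 in DKO and 6.09 in WT. Of 17 enzymes of this list, 7 were measured, with 0 past 2-fold in either direction and a median of 0.24. Cyp2d22 and Cyp2j6 went the other way from Cyp2f2, with differences of -0.10 and -0.29.

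**Figure D3:**
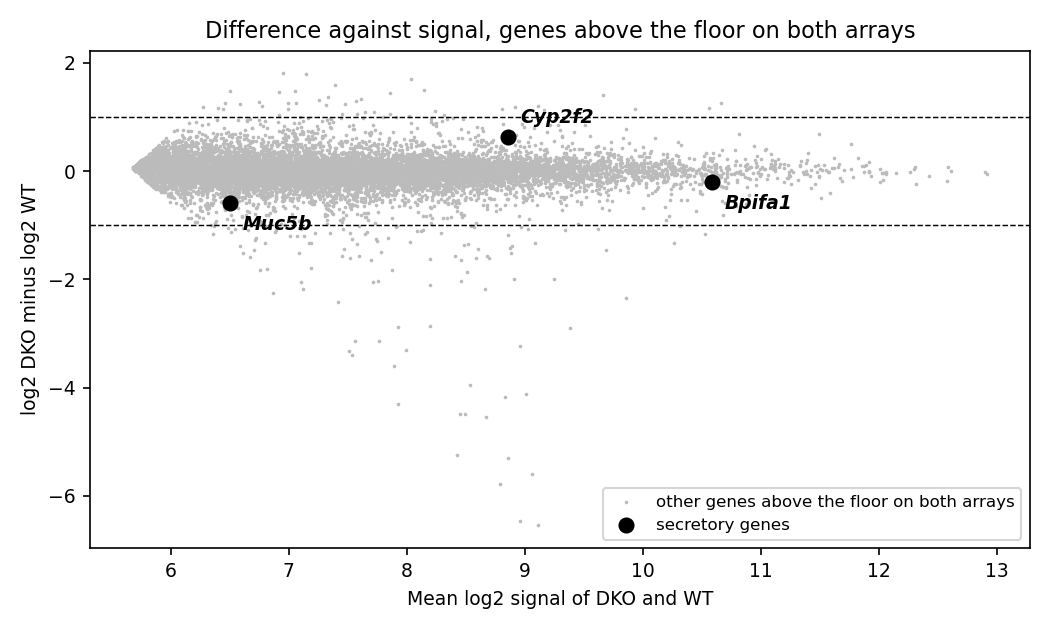
Log2 DKO minus log2 WT (vertical axis) against the mean log2 signal (horizontal axis) for the 11626 genes measured on both arrays, with broken lines at 2-fold. Cyp2f2 at 0.62, Bpifa1 at -0.21 and Muc5b at -0.59 lie between the lines, and the lowest points are muscle genes such as Actc1 at -6.54.

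At 1.5-fold, 280 genes, or 2.25%, were higher in DKO and 451, or 3.62%, were lower. By this rule Cyp2f2 counts as higher and Muc5b as lower, although Muc5b lies almost on that line. Bpifa1 stays within it.

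How far the ear holds the wider programme of such an epithelium was read from lists of marker genes. Of 17 club cell genes on the array, which include Scgb1a1, Scgb3a2 and Cyp2f2, 9 were measured and 0 were past 2-fold. Of the 9, 7 were above 0, against 48% of all genes tested, with a median of 0.31. That count depends on the floor. It was 7 of 16 with the floor at the 25th percentile, 7 of 17 without a floor and 12 of 17 with a pseudocount. Chad and Gabrp, the 2 of the 9 below 0, differed by -0.66 and -0.39 and were named after their values were seen. Ces1d, a carboxylesterase, read 8.48 in DKO and 7.6 in WT, a difference of 0.88. Cbr2, a carbonyl reductase of lung, differed by 0.28. Ces1d and Cbr2 are also made outside airway epithelium, Ces1d in fat among other tissues. The defining secreted products of the list, Scgb1a1 and Scgb3a2, were both below the floor, so the data do not identify club cells. The signals of Bpifa1, Muc5b and Cyp2f2 are thus those of 3 secretory genes in whole ear RNA, and their origin in the middle ear lining was not tested.

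Genes of columnar epithelium in general were slightly higher in DKO, as a list. Of 25 on the array, 22 were measured, 21 of them on both arrays. The remaining measured gene passed the floor in DKO alone, which fixed its direction. All 22 had a difference above 0, against 48% of all genes tested. The median was 0.26, the range 0.03 to 0.80, and 0 passed 2-fold. Krt8 and Krt18, the keratin pair of simple epithelium, read 9.02 and 8.46 in DKO and 8.58 and 7.98 in WT. Spint2, an inhibitor of epithelial serine proteases, differed by 0.37. With the arrays set to equal medians of housekeeping genes, 21 of the 22 were above 0. Cyp2f2 lay inside the range of this list, and Bpifa1 and Muc5b, both below 0, lay outside it.

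Basal cell genes, by contrast, had 13 of 13 members above the floor. Of the 13, 2 were above 0, against 48% of all genes tested, with a median of -0.07 and 0 past 2-fold. Krt5, the basal keratin, differed by 0.05, Itga6, an integrin of basal cells, by -0.05 and Ngfr, a neurotrophin receptor that Schwann cells make too, by -0.53. Of 30 ciliated cell genes on the array, 9 were measured, with a median of -0.01. Foxj1, the regulator of motile cilia, read 5.83 in DKO and 5.79 in WT, and was named after its values were seen. Rfx3 and Rfx2, factors of cilia formation, differed by 0.23 and -0.09. Tppp3, a tubulin-binding protein that tendon and other tissues make too, was 2.76-fold lower in DKO, with 8.96 against 10.43 in WT. The other 8 were within 2-fold.

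Among regulators of secretory and goblet cells, 13 of the 27 on the array were measured, 11 of them on both arrays. The rest of the 13 passed the floor in DKO alone, which fixed their direction. Of the 13, 11 had a difference above 0, against 48% of all genes tested. None passed 2-fold, and the median was 0.13. Nfib, Xbp1 and Creb3l1, the last 2 being factors of the secretory pathway, differed by 0.08, 0.04 and 0.06. The other Nfib probe set differed by -0.15. Nkx2-1, the lung and thyroid regulator that drives Scgb1a1 and Scgb3a2 in lung, read 4.92 in DKO and 4.63 in WT, below the floor on both. Spdef, the goblet cell regulator, was above the floor in DKO alone, at 5.94 against 5.49 in WT. Nkx2-1 and Spdef were named after their values were seen.

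Mucosal defence genes had 9 of 33 members measured, with a median of -0.06. Lpo, the lactoperoxidase of saliva and tears, read 8.65 in DKO and 4.79, below the floor, in WT, at least 8.0-fold higher in DKO. Wfdc18, a secreted whey acidic protein, was 2.74-fold higher, at 7.65 in DKO and 6.19 in WT. Lcn2, an iron-scavenging lipocalin of neutrophils and inflamed epithelium, was 2.30-fold lower, at 6.41 in DKO and 7.61 in WT. Wfdc2, a secreted marker of airway and glandular epithelium, read 7.80 in DKO and 7.78 in WT, and Lyz2, the lysozyme of macrophages, differed by -0.56. 6 of the 9 were within 2-fold.

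**Figure D4:**
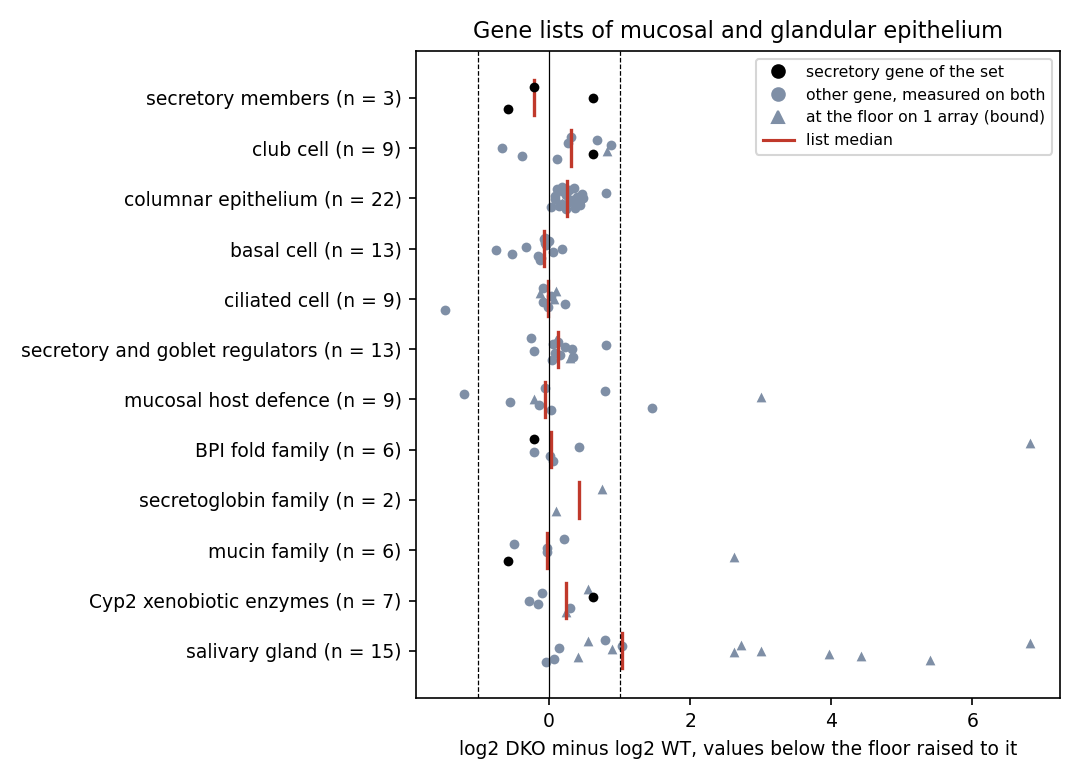
Log2 DKO minus log2 WT of each measured gene, for 12 gene lists down the page, with n the number of genes drawn, a red bar at the list median and broken lines at 2-fold. Columnar epithelium genes lie between 0.03 and 0.80, and salivary gland genes reach 6.82 at Bpifa2.

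Markers of other tissues that make some of these 8 genes were read beside them. Of 21 salivary gland genes 15 were above the floor, 5 of those on both arrays. The rest passed it in DKO alone, which fixed their direction. Of the 15, 8 were at least 2-fold higher in DKO, against 0.482% of all genes tested, and 0 lower. The median was 1.03, or 0.54 with a pseudocount in place of the floor. The linear signals of the 21 summed to 12562 in DKO and 1564 in WT. Smgc, a submandibular gland protein, was at least 42.2-fold higher in DKO and Prol1 at least 21.4-fold. Slc12a2, the chloride importer of secretory cells, differed by 0.08, and Amy1, salivary amylase, was below the floor at 4.32 in DKO and 4.27 in WT and was named after its values were seen. This list was chosen with its direction in these arrays known. The part of salivary tissue in the readings of Bpifa1, Muc5b and Cyp2f2, and in those of the columnar epithelium list, was not tested.

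Markers of lung and of olfactory tissue gave mixed readings. Sftpc, the surfactant protein of alveolar cells, read 4.46 in DKO and 4.24 in WT, and Sftpb read 5.05 in DKO and 5.0 in WT, both below the floor. Of 17 alveolar genes 6 were above it, led by Lpcat1 at 0.16, Abca3 at 0.03 and Etv5 at -0.21, which other tissues make as well, and including Ager at 0.33, Hopx at -0.21 and Aqp5 at 0.79. The other Etv5 probe set differed by 0.05. Of 21 olfactory and nasal genes 3 were above the floor, Adcy3 at -0.15, Gnal at -0.21 and Bpifb3 at 0.43, and Omp, the olfactory marker protein, read 5.45 in DKO and 5.08 in WT, below it. Sftpc, Sftpb, Ager, Hopx, Aqp5 and Omp were named after their values were seen. The part of lung or olfactory tissue in the readings of Bpifa1 and Cyp2f2 was not tested.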

How the data were processed

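Fetal ear RNA of 1 DKO and 1 WT array at E18.5 was compared. Per the labels' protocols, RNA was extracted with Trizol and labelled as biotinylated cRNA from 6 µg. The values deposited by the authors are log2 signals per probe set, with the base read from their range of 0.75 to 13.3. Per the submitters' processing notes MAS5 was used, with no version. The array is a whole-transcript design without the mismatch probes MAS5 needs, so how the values were made is unsettled. Background correction, normalization and build: not given in the sources used here.

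Names came from the platform annotation, updated through a RefSeq table. The annotation paired 21789 probe sets with 1 gene, 1621 with several and 12147 with none, and 0 probe sets with several genes held a member. For each gene the probe set of highest mean linear signal was kept. Values below each array's 50th percentile were raised to it, and a fold with 1 side there is a bound. Differences were counted at 2-fold, with no test. Trimmed mean signals were 138 in DKO and 140 in WT. Calculations used Python 3.11.15, numpy 2.4.6, pandas 2.3.3 and statsmodels 0.14.6 and were checked on simulated data. The planted differences were larger than those of the measured members and lay in genes far above the floor. Recovery of smaller differences, or of differences near the floor, was not checked.

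The 8 members and the gene lists were chosen with earlier results of these data known. All members, any gene of the BPI-fold, secretoglobin, mucin and Cyp2 lists, and of each other list the 3 genes of highest signal and up to 3 with the largest differences past 2-fold in each direction could be named; names outside this rule are marked in the text. Alternatives covered 5 other scalings, other floors, a pseudocount, a median across a gene's probe sets, and cut-offs at 1.5-fold and 3-fold.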

Additional observations from a re-analysis of the deposited data

How the results depend on the processing

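The differences of Bpifa1 (-0.24 to -0.16) and Cyp2f2 (0.57 to 0.66) kept their direction and stayed within 2-fold under the 10 alternatives besides cut-offs. Only the 5 other scalings and the pseudocount could move them. Each gene has 1 probe set above every floor tried, so the floor settings and the probe set rule left both values unchanged. Muc5b kept its direction under the 9 that held it, from -0.62 to -0.35, the weakest with a pseudocount. The lowest floor, no floor and the probe set rule left its value unchanged too. The 5 other scalings moved the median over all genes by at most 0.034 in size. The count of members at least 2-fold lower and the count at least 2-fold higher were 0 under every alternative except the threshold of 1.5-fold, where each was 1 and 1 member was left within the threshold. The count within 2-fold was 6 under the lowest floor (25th percentile) and 8 without a floor, with or without a pseudocount, because more members enter. The median member difference turned to 0.21 under the highest floor (75th percentile), where Bpifa1 and Cyp2f2 are the 2 members left, and to 0.014 with the pseudocount. Of genes of the other lists, 144 were measured with the muscle list, the housekeeping genes and the 8 members left out. On the reported setting 2 of these were lower and 12 higher, against 1.71% and 0.482% of all genes tested. Of the 12, 8 are of the salivary gland list, which was chosen with its direction known. The lower count was 4 under the lowest floor, without a floor and at 1.5-fold, 1 under the highest floor and with the pseudocount, and 0 at 3-fold; the higher count was 7 under the highest floor and 19 at 1.5-fold. Over all genes the lower count was 111 under the highest floor, 451 at 1.5-fold and 120 at 3-fold, and the higher count 21, 280 and 16, with 92 without a floor and 34 with the pseudocount. No paired analysis was possible because there is 1 array per genotype. A signal below an array's median gives no level, which limits 5 of the 8 genes.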

Other observations

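Other surface epithelia of the ear region gave mixed readings beside the secretory genes. Of the 12 epidermal genes on the array, 3 were above the floor, each in DKO alone, which fixed their direction. Of these, 2 were at least 2-fold higher there, against 0.482% of all genes tested. Krt1, a keratin of differentiating epidermis, read 7.52 in DKO and 5.60, below the floor, in WT, at least 3.67-fold higher in DKO. Krt10, its partner keratin, read 7.42 in DKO and 5.01 in WT, at least 3.43-fold higher. Genes of oral and oesophageal squamous epithelium had 6 of 17 above the floor, 4 of those on both arrays. The rest of the 6 passed it in WT alone, which fixed their direction. Of the 6, 5 were below 0 and 1 above it, against 48% of all genes tested above 0. None was past 2-fold, and the median was -0.29. Mal, a membrane protein of sorting vesicles, differed by -0.30, Pax9, a pharyngeal pouch factor, by -0.43 and Pitx1 by 0.57.

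Of the 9 mesothelial genes, which include Muc16, 4 were above the floor. Gpm6a, a membrane glycoprotein that neurons make as well, was 2.18-fold higher in DKO, at 9.73 against 8.60 in WT, and Upk1b differed by -0.47 and Krt19 by 0.08. Of the 12 liver genes 3 were above the floor, with Ttr at -0.14, Trf at 0.05 and Apoa1 at 0.24. Of the 7 thyroid genes 1 was above it, Foxe1 at -0.11. Among named probe sets, 763 had the same reading on both arrays, of which 161 lay above the floor.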
